A study of Mus musculus with 4 samples.

Results

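Axons find their way by reading ligands with receptors on the growth cone, and 72 transcripts of these families were followed here through an anti-YTHDF2 RNA immunoprecipitation (RIP) from newborn mouse retina. They were taken from the 52550 genes of the count table by symbol alone, as the semaphorins of classes 3 to 7, the plexins, the neuropilins, the ephrins and Eph receptors, the Slits and Robos, the netrins, the Unc5 receptors, Dcc and Neo1. The set holds 34 ligands, 35 receptors and 3 antisense transcripts of the plexin gene Plxna4, whose symbols fall under the same pattern. The retinas came from P0 (postnatal day 0) wild-type C57BL/6 mice and were dissociated with papain before lysis. Each of 2 replicates was sequenced before the pulldown (input) and after recovery with the YTHDF2 antibody (RIP), so that all 4 libraries share genotype, strain, age and treatment and differ in the pulldown. The methods call the replicates biological and also name a control IgG, which was not analysed here, so RNA recovered without the antibody's target cannot be told apart from RNA bound by YTHDF2. How many animals entered a replicate is not given in the sources used here.

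YTHDF2 is a cytoplasmic protein that binds N6-methyladenosine (m6A) in mRNA and is known for directing the decay of the transcripts it holds. Semaphorins signal through plexins, with neuropilins as the binding partner for most secreted class 3 members, ephrins signal through Eph receptors in both directions between touching cells, Slits repel through Robos, and netrins attract through Dcc or repel through Unc5 receptors. In the visual system these families are known for steering the axons of retinal ganglion cells out of the eye, across or away from the midline at the optic chiasm, and to their place in the tectal map. The comparison of RIP with input asks which of their transcripts were recovered with YTHDF2.

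The letters in which m6A is most often placed are GGACT, the core of the wider DRACH consensus (D is A, G or T, R is A or G, and H is A, C or T). The last GGACT of the coding sequence is printed here in capitals, within 30 coding bases of the longest coding transcript that GENCODE M21 (GRCm38) annotates, read 5′ to 3′ on the coding strand, for 3 transcripts that were enriched in the RIP (Nrp2, Epha4 and Sema4f) and for 2 relatives that were not (Nrp1 beside Nrp2, and Efna5, a ligand of Epha4).
Nrp2: tccaggaccccaGGACTcagcagacaaagc
Nrp1: ggcatggtgtctGGACTtatttcagactcc
Epha4: tcagttaatgctGGACTgctggcagaaaga
Efna5: ccctcactatgaGGACTctgtcccagaaga
Sema4f: gactgcaacaggGGACTacctgtcatggac
The motif starts at coding base 1625 of 2742 in Nrp2, 1318 of 2769 in Nrp1, 2574 of 2958 in Epha4, 198 of 684 in Efna5 and 1120 of 2331 in Sema4f. Nrp2 lies at chr1:62703285-62818695 on the plus strand, Epha4 at chr1:77367185-77515088 on the minus strand and Sema4f at chr6:82911885-82939769 on the minus strand. The coding sequences of Nrp2 and Nrp1 hold 5 and 4 copies. On the whole transcript GGACT was found at least once in each of the 61 transcripts that could be tested, and in 96.3% of the 10084 other tested protein-coding transcripts of the same length range (1599 to 12877 nt). Its median density was 1.26 copies per kb in the enriched members, 1.30 in the members that were not called and 1.04 over all tested protein-coding transcripts. The search looked for letters on the sense strand only, and says nothing about which copies carried m6A.

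Total counts were between 19530226 and 39499994 per library, of which 2083594 to 4175459 fell on protein-coding genes. Counts were scaled by edgeR's TMM factors and are given as CPM. Fold changes therefore compare a transcript with the mass of the 13632 that were tested, and bound RNA was not quantified. Enriched means a RIP over input log2 fold change no lower than 1 with p under 0.05 before adjustment in edgeR's quasi-likelihood test, and depleted means one no higher than -1 with the same p. The edgeR adjusted p is that p after Benjamini-Hochberg adjustment over all tested transcripts. For 1 transcript alone, 2 libraries against 2 allow an exact two-sided permutation p of 0.333 at the lowest, and the calls borrow their error from the other genes of the model. Among cell type markers, the sum of 10 retinal ganglion cell markers was lower in the RIP (102 and 80.5 CPM in the inputs, 39.995 and 38.4 CPM in the RIP libraries). Stmn2 (1069 and 844 input counts, 237 and 226 RIP counts), Sncg (763 and 469, 40 and 43) and Gap43 (405 and 372, 66 and 50) made up most of this fall. Pou4f1 (103 and 210 input counts, 125 and 89 RIP counts) overlapped between the groups, and Atoh7 had 66 and 73 input counts and 97 and 74 RIP counts. The sum thus does not stand for every marker. Progenitor transcripts stood at 951 and 629 against 624 and 602 CPM, and photoreceptor precursor transcripts at 115 and 133 against 155 and 158 CPM. Most of the progenitor sum was Ccnd1 (22852 and 14550 input counts, 11584 and 10704 RIP counts, not scaled for library size). In the authors' FPKM, which are scaled for library size and gene length, its RIP values (115.9 and 83.9) lay within those of the inputs (116.9 and 81.8). Of the photoreceptor precursor markers, Otx2 was lower in both RIP libraries (1346 and 1142 input counts, 621 and 756 RIP counts). Amacrine and horizontal cell markers stood at 70.3 and 114 against 55.3 and 49.1 CPM, and the sum of 5 endothelial markers at 33.4 and 32.3 against 65.6 and 67.2 CPM, nearly all of it Kdr (997, 1037, 1597 and 1564 counts). Astrocyte markers (1.53 to 3.84 CPM), microglial markers (1.43 to 3.53 CPM), pigment epithelium markers (3.50 to 4.44 CPM, with Pmel, Rpe65 and Tyr at 0 in the inputs), lens markers (0 to 0.570 CPM, with Cryaa, Crybb1 and Mip at 0 in the inputs) and erythroid markers (0.0396 to 0.990 CPM) were low in all 4 libraries. Called depleted were 3 of 10 ganglion cell, 2 of 7 progenitor and 2 of 6 amacrine and horizontal cell markers, beside 17.2% of all tested transcripts. Called enriched were 1 of 2 tested astrocyte, 1 of 2 tested endothelial and 1 of 3 tested microglial markers, beside 9.43% of all tested transcripts. The other tested microglial markers, Cx3cr1 (46 and 13 input counts, 10 and 15 RIP counts) and P2ry12 (19 and 12, 3 and 3), were not enriched. The median log2 fold change of the 3 was -0.78. Endothelial Cldn5 (101 and 57 input counts, 49 and 46 RIP counts) was not enriched either. The part of these differences in the results on guidance transcripts was not tested.

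Of the 72 transcripts, 61 had enough reads for a test, comprising 29 ligands and 32 receptors. Of these, 17 were called enriched and none depleted (27.9% and 0%, against 9.43% and 17.2% of all tested transcripts). With the edgeR adjusted p below 0.05 as a further limit, 11 members were enriched and 0 depleted, where 3.48% and 9.78% of all tested transcripts passed. No member had a log2 fold change below 0 with an unadjusted p below 0.05, and DESeq2 called 17 enriched and 0 depleted, of which 16 were shared (Unc5b was lost and Plxna1 gained). Of the 17, Slit2 was also lost with TMM factors from which small RNA was left out, and Slit2, Unc5b and Unc5c with limma on FPKM. With at least 10 counts asked of every library, Slit2 was not called and Sema4f and Unc5b were not tested. Scaling by library size alone gave 29 enriched and 0 depleted members, while the enriched share of all calls in the table went from 35.4% to 57.7%. Both RIP libraries lay above both inputs for 37 members (60.7%, against 29.6% of all tested transcripts) and below both for 2, Efna2 and Efna5 (3.28%, against 31.3%). The median log2 fold change of the tested members was 0.82, where that of all tested transcripts was -0.05, and replicates 1 and 2 taken alone gave medians of 0.75 and 0.78. The members ranged from -0.94 (Efna2) to 2.83 (Sema4f), and 53 of 61 were above 0, where 6558 of all 13632 tested transcripts were. These shares describe a list whose members share length and sequence features, and were given no test of their own.

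The filter on low counts was not neutral for every member. Its minimum of 0.327 CPM was reached by 8 tested members in both RIP libraries but not in both inputs, so that they entered the test through the RIP libraries. They are Sema3a, Sema3g, Sema4f, Efna1, Epha7, Ntn1, Unc5b and Unc5d, of which Sema4f and Unc5b were called (25%, where 13.5% of the 780 such transcripts in the table were enriched). Among the 52 members that reached the minimum in all 4 libraries, 15 were enriched (28.8%), where 10.4% of the 11342 such transcripts in the table were. The 11 untested transcripts were Sema3b, Sema3c, Sema3d, Plxnb3, Epha1, Slit3, Robo4, Ntn5 and the 3 Plxna4 antisense transcripts. Sema3d, a secreted class 3 ligand, had the most reads of them with Sema3b (1 and 3 input counts and 6 and 3 RIP counts, a total of 13), and Sema3c, Plxnb3, Robo4, Ntn5, Plxna4os2 and Plxna4os3 had none. Plxna4os1 had 2 counts, both in RIP replicate 1, against 454 counts over the 4 libraries for Plxna4 on the other strand.

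**Figure D1:**
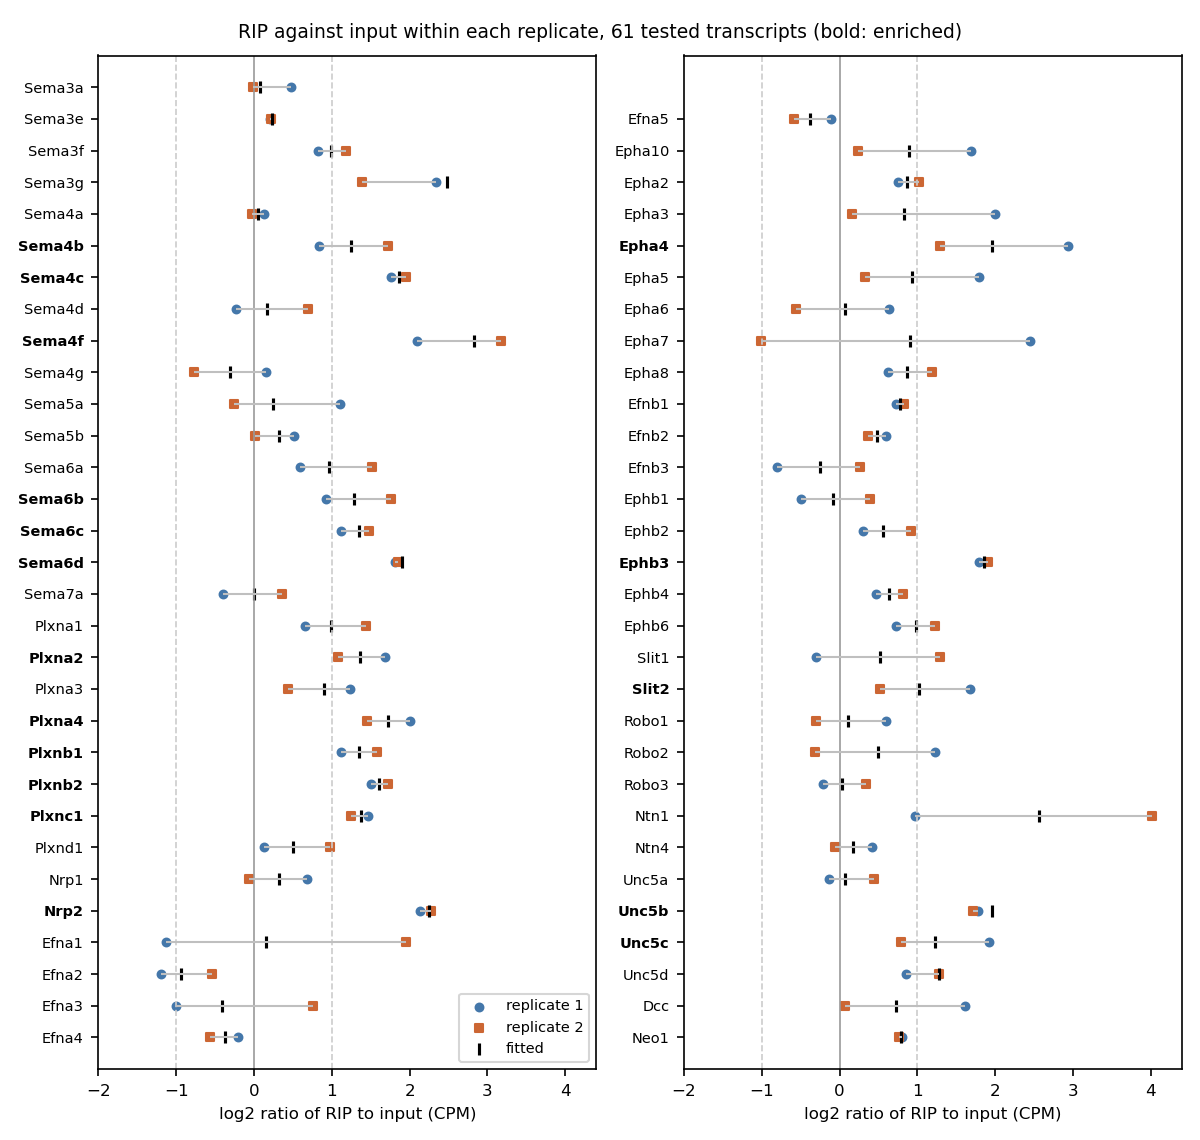
The log2 ratio of RIP to input CPM within replicate 1 (circles) and replicate 2 (squares) is plotted for the 61 tested transcripts, ordered by family from semaphorins to Dcc and Neo1, with the edgeR log2 fold change as a black bar and the 17 enriched transcripts in bold. Dashed lines mark log2 ratios of -1 and 1, and the fitted bar can lie outside both ratios where counts are low, as for Sema3g, because the ratios were moderated by a larger prior count. The plexins lie to the right of 0 in both replicates, while the ephrin-A ligands, apart from Efna1 and Efna3 in replicate 2, lie to its left.

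The plexins are the signalling receptors for semaphorins. All 8 tested plexins had both RIP libraries above both inputs, and 5 were called enriched. The 5 also had an edgeR adjusted p below 0.05, and the family median log2 fold change was 1.35. Over all tested transcripts, the 3 shares were 29.6%, 9.43% and 3.48%. The tested plexins are long, with a median of 7975.5 nt. Among tested protein-coding transcripts over 4310 nt, the shares were 49.5%, 18.7% and 7.35%, and the median log2 fold change was 0.47. Plxna4, which serves class 3 and class 6 semaphorins, had the highest log2 fold change of the plexins. It stood at 1.47 and 2.48 CPM in the inputs and at 6.10 and 6.90 CPM in the RIP libraries, a log2 fold change of 1.72 ± 0.421 (SE; edgeR adjusted p = 0.0317). Plxnb2, a receptor of class 4 semaphorins and the plexin with the most reads, rose from 23.7 and 19.1 CPM to 67.3 and 62.8 CPM (log2 fold change 1.61 ± 0.340, edgeR adjusted p = 0.0187). The RIP libraries of Plxnb2 were thus close to each other and about 3-fold above the inputs (3.04-fold in the fit). Plxnc1, the receptor of the membrane-anchored Sema7a, rose from 3.18 and 3.38 CPM to 8.92 and 8.11 CPM (1.37 ± 0.361, edgeR adjusted p = 0.0399). Plxna2, a receptor of class 6 semaphorins in the retina, rose from 11.3 and 15.9 CPM to 36.2 and 33.8 CPM (1.36 ± 0.350, edgeR adjusted p = 0.0374). Plxnb1, the receptor of Sema4d, rose from 19.1 and 14.7 CPM to 41.5 and 44.1 CPM (1.34 ± 0.341, edgeR adjusted p = 0.0357). In none of these 5 did the spread between replicates reach the gap between RIP and input. With the trends on transcript length and GC content taken out of the fold change, none of the 5 stayed past the fold limit.

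The other plexins were not called. Plxna1, which works with neuropilins, stood just below the fold limit (23.1 and 13.1 CPM in the inputs, 36.3 and 35.6 CPM in the RIP libraries; log2 fold change 0.99, edgeR adjusted p = 0.1225) and was called with the replicate number as a block (1.05). Plxna3, another partner of neuropilins, had a log2 fold change of 0.90 ± 0.409 and Plxnd1, the receptor of Sema3e, one of 0.50 ± 0.378. The overlapping antisense gene Gm7628 had 119 and 67 input counts and 24 and 14 RIP counts, against 503 to 1061 counts for Plxnb1. The strand setting of the counting step is not given in the sources used here, so reads of such pairs could be shared.

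Of the neuropilins, co-receptors that bind secreted semaphorins, Nrp2 was called enriched and Nrp1 was not. Nrp2 had one of the highest values of the set, at 1.44 and 1.17 CPM in the inputs and at 6.54 and 5.90 CPM in the RIP libraries (48, 40, 165 and 142 counts), a log2 fold change of 2.25 ± 0.400 or 4.77-fold (edgeR adjusted p = 0.0092). Its replicates gave ratios of 2.13 and 2.27, which do not come near 0. Nrp1, known in the retina as a receptor for VEGF on crossing ganglion cell axons and for Sema3a, stood at 1.29 and 1.66 CPM in the inputs and at 2.10 and 1.58 CPM in the RIP libraries. Its log2 fold change was 0.32 ± 0.470, and the groups overlapped. The difference between both neuropilins was not tested as such.

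Among the semaphorin ligands, 6 of 17 tested members were called enriched, 3 of class 4 and 3 of class 6, and none of class 3, 5 or 7. The enriched share of all tested transcripts was 9.43%. Sema4f, a membrane-bound class 4 ligand with few reads in the input, had the highest fold change of the tested members. It entered the test through the RIP libraries, as did Sema3a and Sema3g, so its rank and call rest partly on that filter. It had 14 and 8 input counts and 51 and 64 RIP counts (0.420, 0.233, 2.02 and 2.66 CPM), a log2 fold change of 2.83 ± 0.582 (edgeR adjusted p = 0.0168). Sema4c, a ligand of Plxnb2, rose from 7.92 and 7.11 CPM to 26.9 and 27.8 CPM (1.86 ± 0.335, edgeR adjusted p = 0.0098). Its libraries of 1 kind lay within 1 CPM of each other. The overlapping transcript D430040D24Rik on the opposite strand had 53 counts in each input and 29 and 37 in the RIP libraries, small beside the 244 to 679 counts of Sema4c. Sema4b rose from 6.54 and 3.96 CPM to 11.7 and 13.3 CPM (1.25 ± 0.382), but its edgeR adjusted p was 0.0648. Sema4d, the best-known ligand of Plxnb1 and the semaphorin with the highest input level, did not move in a common direction (30.6 and 16.9 CPM in the inputs, 26.0 and 27.4 CPM in the RIP libraries; log2 fold change 0.17 ± 0.382). Sema4a (0.05) and Sema4g (-0.31) were not called either.

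The class 6 semaphorins, transmembrane proteins that act on plexins of class A, had both RIP libraries above both inputs in all 4 members, with a median log2 fold change of 1.32. Of all tested transcripts, 29.6% had both RIP libraries above both inputs. Sema6d, a guidance cue of the optic chiasm, rose from 0.810 and 1.14 CPM to 3.01 and 4.28 CPM (1.90 ± 0.455, edgeR adjusted p = 0.0292). Sema6c rose from 1.26 and 1.25 CPM to 2.81 and 3.62 CPM (1.35 ± 0.426, edgeR adjusted p = 0.0708). Sema6b rose from 2.58 and 1.25 CPM to 4.95 and 4.41 CPM (1.29 ± 0.458, edgeR adjusted p = 0.1002). These calls of Sema6b and Sema6c rest on the unadjusted limit only. Sema6a, a ligand of Plxna2 and Plxna4 in the inner retina, fell just short at 0.97 (12.3 and 5.86 CPM in the inputs, 18.7 and 16.96 CPM in the RIP libraries) and was called with the replicate block (1.06).

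None of the secreted class 3 semaphorins was called. Sema3f, the main ligand of Nrp2 and the class 3 member with the highest input level, came nearest (8.88 and 6.00 CPM in the inputs, 15.7 and 13.8 CPM in the RIP libraries; log2 fold change 0.99, edgeR adjusted p = 0.1062), and was called with the replicate block (1.01). Sema3e, the ligand of Plxnd1, stayed between 0.670 and 0.872 CPM in all 4 libraries (0.23 ± 0.612). Sema3a had 7 and 49 input counts and 8 and 34 RIP counts, so that its replicates differed far more than its groups. Sema3g had 0 and 4 input counts and 7 and 10 RIP counts, and its log2 fold change of 2.47 ± 1.29 did not pass the limits. Sema5a and Sema5b, inhibitory cues that keep retinal neurites out of the outer retina, had log2 fold changes of 0.25 ± 0.476 and 0.32 ± 0.399, with inputs that overlapped the RIP libraries. Sema5a was at -0.31 without input replicate 1 and at 1.16, past the limits, without input replicate 2. Sema7a was at -0.00 ± 0.403.

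Among the Eph receptors, which read ephrins for topographic mapping, Epha4 and Ephb3 were called enriched. They are 2 of 13 tested (15.4%), where 9.43% of all tested transcripts were enriched. Epha4 stood at 1.65 and 4.63 CPM in the inputs and at 13.04 and 11.4 CPM in the RIP libraries, a log2 fold change of 1.96 ± 0.501 (edgeR adjusted p = 0.0367). Its inputs differed from each other more than its RIP libraries did, so the value without input replicate 1 was 1.40 and that without input replicate 2 was 2.88, and it was called either way. Ephb3 rose from 3.81 and 3.15 CPM to 13.3 and 11.97 CPM (1.86 ± 0.355, edgeR adjusted p = 0.0125), and lies at chr16:21204755-21223305 on the plus strand. The spread between libraries of 1 kind was small beside this gap.

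The median log2 ratio of the 8 tested EphA receptors, Epha4 included, was 1.74 in replicate 1 and 0.28 in replicate 2, while Epha2 (0.75 and 1.02) and Epha8 (0.62 and 1.19) were higher in replicate 2. Epha5, a receptor of temporal retinal axons, stood at 3.66 and 8.95 CPM in the inputs and at 12.9 and 11.2 CPM in the RIP libraries (0.93 ± 0.455). Epha3 stood at 1.68 and 6.06 CPM against 6.94 and 6.78 CPM (0.82 ± 0.561). Both had RIP libraries above both inputs, and both were called with the replicate block (1.06 and 1.08) and without input replicate 2. Epha8, the member with the highest input level per length, stood at 28.0 and 17.3 CPM against 43.1 and 39.5 CPM (0.87, edgeR adjusted p = 0.1543), past the unadjusted p limit but not the fold limit. Epha2 (0.87, edgeR adjusted p = 0.1496) and, among EphB receptors, Ephb6 (0.98, edgeR adjusted p = 0.1479) stood likewise. Epha10 (0.89 ± 0.574) and Ephb4 (0.64 ± 0.426) missed the p limit as well. Epha6 had 8 to 18 counts per library and a log2 fold change of 0.07, and Epha7, with 9, 31, 45 and 10 counts, had ratios of 2.45 and -1.01, so neither could be placed. Of the other EphB receptors, Ephb1, which directs axons to the same side of the brain, was at -0.09 ± 0.367 and Ephb2, the member with the most reads, at 0.55 ± 0.390 (60.9 and 33.4 CPM in the inputs, 75.2 and 63.2 CPM in the RIP libraries).

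The ephrins, ligands of these receptors, contained no enriched transcript among 8 tested, where 9.43% of all tested transcripts were enriched. With 8 tested, an absence of calls cannot be told apart from this share. The 5 ephrin-A ligands are tethered to the membrane by a lipid anchor and repel temporal axons. They were the family with the lowest median log2 fold change (-0.39), and only Efna1 was above 0. The 4 of them up to 2543 nt long had a median of -0.39. All tested protein-coding transcripts up to that length had a lower median, -0.66, and 2.64% of them were enriched. Efna5, at 4032 nt, was below the median of protein-coding transcripts between 2543 and 4310 nt, which was 0.13. Efna2 stood at 11.8 and 6.24 CPM in the inputs and at 5.11 and 4.28 CPM in the RIP libraries, a log2 fold change of -0.94 ± 0.417 (edgeR adjusted p = 0.1738). Its groups did not overlap, but it missed both limits, and it was called depleted only with a filter of 10 counts in every library or, with Efna3, without input replicate 2. Efna5 stood at 3.09 and 4.66 CPM against 2.85 and 3.08 CPM (-0.39 ± 0.403), a gap smaller than the spread between the inputs. Efna1, with ratios of -1.13 and 1.96, and Efna3, with ratios of -1.01 and 0.75, changed sign between replicates. The transmembrane ephrin-B ligands Efnb1 (0.78 ± 0.391) and Efnb2 (0.48 ± 0.326) had RIP libraries above both inputs without passing the limits, and Efnb3 was at -0.25 ± 0.399.

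In the Slit and Robo families, Slit2, the repellent that keeps ganglion cell axons on course at the chiasm, was called enriched. It rose from 2.28 and 4.66 CPM to 7.45 and 6.69 CPM (1.03 ± 0.440), with an edgeR adjusted p of 0.1600. This was the weakest call of the set. Without input replicate 1 its log2 fold change was 0.60, and the call was also lost without either RIP library. Slit1, also a ligand of Robos in the retina, was at 0.51 ± 0.455, with ratios of -0.30 and 1.29. The receptors were not enriched, with Robo1 at 0.10 ± 0.390, Robo2, the main Slit receptor of ganglion cells, at 0.49 ± 0.419 (ratios 1.23 and -0.32) and Robo3 at 0.02 ± 0.539.

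Of the netrin receptors, 2 of 4 Unc5 transcripts were called, where 9.43% of all tested transcripts were enriched. Unc5b and Unc5d entered the test through the RIP libraries, and 13.5% of the 780 such transcripts in the table were enriched. Unc5b had 8 and 11 input counts and 25 and 29 RIP counts (log2 fold change 1.95 ± 0.681, edgeR adjusted p = 0.0953). Unc5c, which mediates repulsion from netrin, rose from 1.62 and 4.05 CPM to 6.30 and 7.03 CPM (1.23 ± 0.485, edgeR adjusted p = 0.1311). For both, the groups did not overlap and the adjusted limit was missed. Dcc, the receptor for attraction to netrin at the optic disc, stood at 2.43 and 5.77 CPM in the inputs and at 7.53 and 6.07 CPM in the RIP libraries (0.73 ± 0.471). Its value was 0.24 without input replicate 1 and 1.48, past the limits, without input replicate 2. Its relative Neo1 stood at 14.2 and 11.9 CPM against 24.9 and 20.2 CPM (0.79 ± 0.338, edgeR adjusted p = 0.1610), past the unadjusted p limit alone. Unc5a (0.07 ± 0.470) and Unc5d (1.28 ± 0.855) were not called. The ligand Ntn1 had 9 and 0 input counts and 15 and 25 RIP counts, and its log2 fold change of 2.57 ± 1.20 ran from 1.57 to 7.52 as single libraries were left out. Ntn4, the netrin with the highest input level, was at 0.17 ± 0.423.

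**Figure D2:**
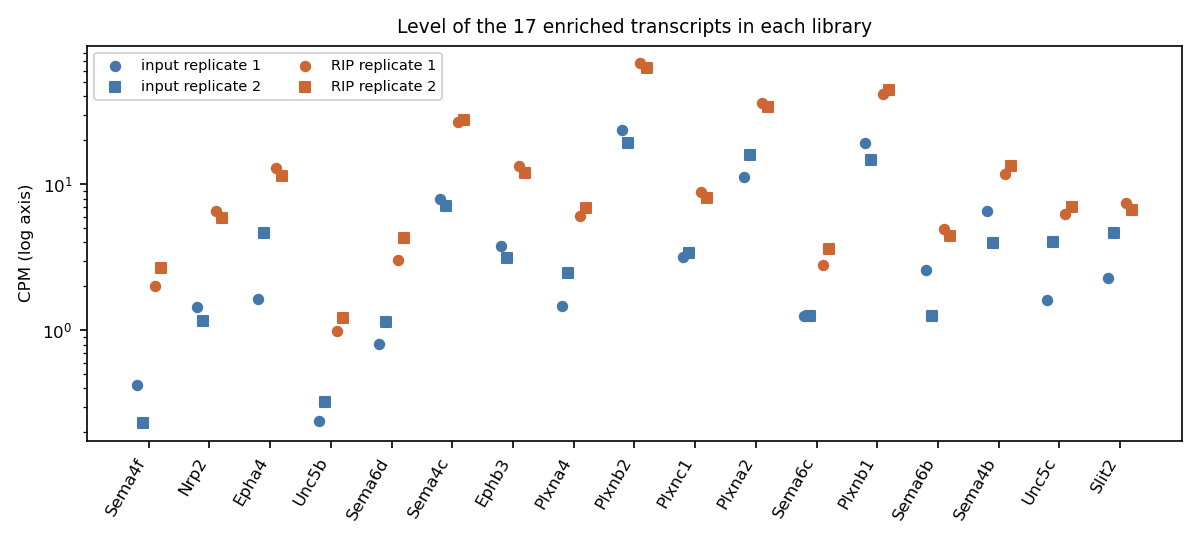
CPM on a log axis in each of the 4 libraries for the 17 enriched transcripts, ordered by log2 fold change from Sema4f to Slit2, with inputs in blue, RIP libraries in orange, circles for replicate 1 and squares for replicate 2. Both RIP points lie above both input points in each transcript, and the inputs of Epha4 and Unc5c are the farthest apart.

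The calls depended on single libraries in 6 of the 17 transcripts. Sema4b was lost without input replicate 2 (0.93) or RIP replicate 2, Sema6b without input replicate 2 (0.85) or RIP replicate 1, Sema6c without RIP replicate 2, and Unc5b without input replicate 1 or RIP replicate 2. Unc5c kept its call, at 2.03, only without input replicate 2 (0.72 without input replicate 1), and so did Slit2 at 1.62. The other 11, which are those past the adjusted limit, were called whichever library was left out. Members not called with all 4 libraries passed the limits when an input was left out, while the enriched share of all transcripts rose too. They were Efnb1, Epha2, Epha8, Ephb2, Ephb6, Ntn1, Plxna1, Sema3f and Sema6a without input replicate 1, and Dcc, Epha3, Epha5, Epha10, Sema3g and Sema5a without input replicate 2. With the replicate number as a block, the 17 were called together with Epha3, Epha5, Ntn1, Plxna1, Sema3f and Sema6a, 23 in all, and Sema4b, Sema6b and Unc5c joined the 11 past the adjusted limit, 14 in all.

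The shares and medians were higher for receptors than for ligands, a difference that was not tested. Of the receptors, 10 of 32 were enriched (31.3%), 31 were above 0 and the median log2 fold change was 0.89. Of the ligands, 7 of 29 were enriched (24.1%), 22 were above 0 and the median was 0.32. Over all tested transcripts, 9.43% were enriched, 6558 of 13632 were above 0 and the median was -0.05. The receptor transcripts were also longer, with a median of 6734.5 nt against 4032 nt.

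The level of these transcripts before the pulldown is given by the authors' FPKM values, which are scaled for length. In the inputs the mean FPKM of the tested members ranged from 0.0115 to 4.07 with a median of 0.528, and 17 members reached 1 FPKM. The highest were Epha8 (4.78 and 3.35 FPKM), Efna2 (4.42 and 2.65 FPKM), Ephb2 (3.87 and 2.40 FPKM), Sema4d (3.81 and 2.38 FPKM) and Plxnb2 (2.67 and 2.43 FPKM). The gaps between neighbours in this order were smaller than the differences between the inputs of the first 4, so their order is not settled. Of these 5 only Plxnb2 was enriched, and the median input level of the enriched members (0.335) was below that of the members not called (0.626). Nrp2 (0.0975 and 0.0872 FPKM) and Sema4f (0.0628 and 0.0381 FPKM), the members with the highest fold changes past the adjusted limit, were among the 11 members under 0.1 FPKM. In bulk tissue, a low level cannot be told apart as few cells that express a gene or little RNA in each.

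**Figure D3:**
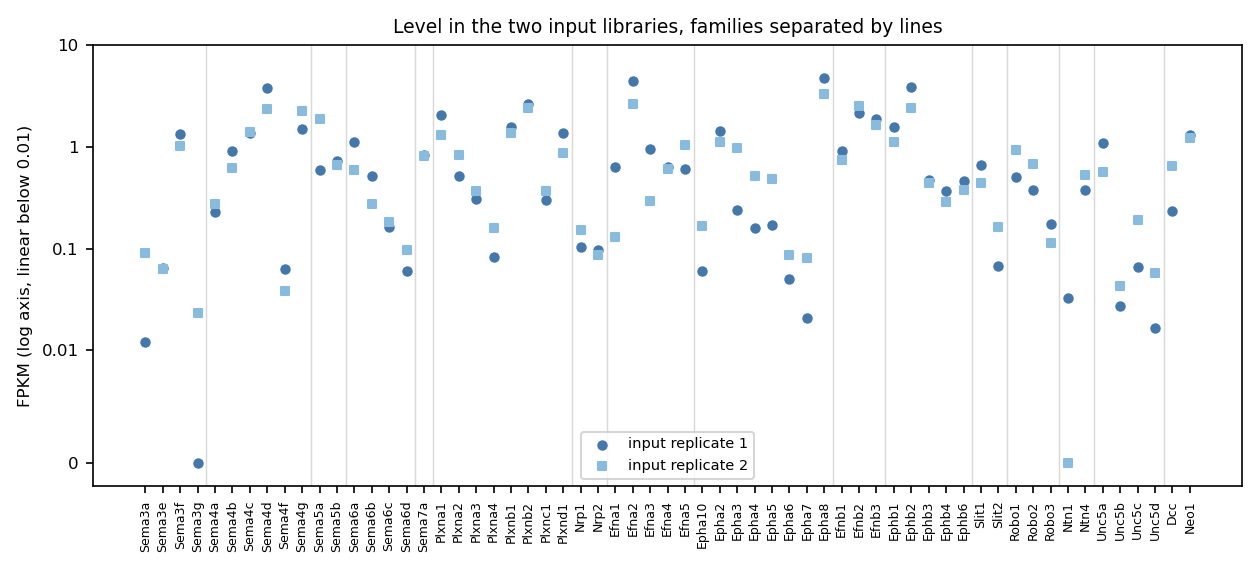
The authors' FPKM in input replicate 1 (dark circles) and input replicate 2 (light squares) for the 61 tested transcripts, on an axis that is logarithmic above 0.01 and linear below, with lines between families. Levels span from 0, in 1 input each for Sema3g and Ntn1, to 4.78 FPKM for Epha8, and the EphA receptors from Epha10 to Epha7, apart from Epha2, lie higher in replicate 2.

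Length went with enrichment among the members as it did among all transcripts. The Spearman correlation of the log2 fold change with the length of the longest annotated coding transcript was 0.384 over the 61 members and 0.487 over 11953 protein-coding transcripts, genes sharing the same 4 libraries and not being independent replicates. The median length was 6444 nt in the enriched members, 4663.5 nt in the members not called and 3339 nt over all tested protein-coding transcripts. The median GC content was 56.1% in the tested members and 50.2% over all tested protein-coding transcripts. Its Spearman correlation with the log2 fold change was 0.0214 over the members and 0.0620 over the protein-coding transcripts. With the protein-coding transcripts put by length into 3 bins of about equal size, in the longest bin (over 4310 nt), 12 of 40 members were enriched (30%), where 18.7% of 3987 protein-coding transcripts were. In the middle bin, 5 of 17 members were enriched (29.4%), where 9.52% of 3982 were. In the shortest bin (up to 2543 nt), which holds 4 ephrin-A ligands, 0 of 4 members were enriched and 0 depleted, where 2.64% of 3984 were enriched and 32.9% depleted. Smooth trends on length and GC content were then taken out of the fold change, while each transcript kept its p from the uncorrected fit, so that only the fold limit was applied to the corrected value. In this way 6 of the 61 members stayed enriched (9.84%, against 4.03% of all transcripts), namely Sema4c, Sema4f, Sema6d, Nrp2, Epha4 and Ephb3. All 5 enriched plexins fell below the fold limit, Plxna4 from 1.72 to 0.79 and Plxnb1 from 1.34 to 0.23. The median of the members was then -0.037 against -0.21 for all transcripts, a gap of 0.17 in place of 0.88. Whether length acts in the pulldown or in the libraries was not tested.

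**Figure D4:**
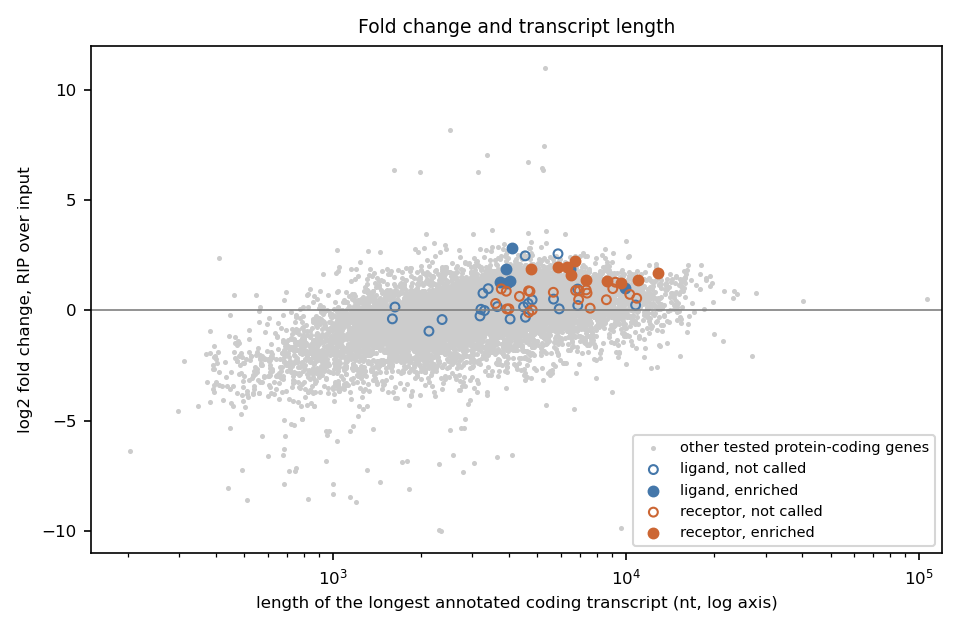
The log2 fold change of RIP over input against the length of the longest annotated coding transcript (nt, log axis) for tested protein-coding transcripts (grey), ligands (blue) and receptors (orange), filled where enriched. Fold changes rise with length in the grey cloud, the members lie between 1599 and 12877 nt, and the enriched members between 3736 and 12877 nt.

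**Figure D5:**
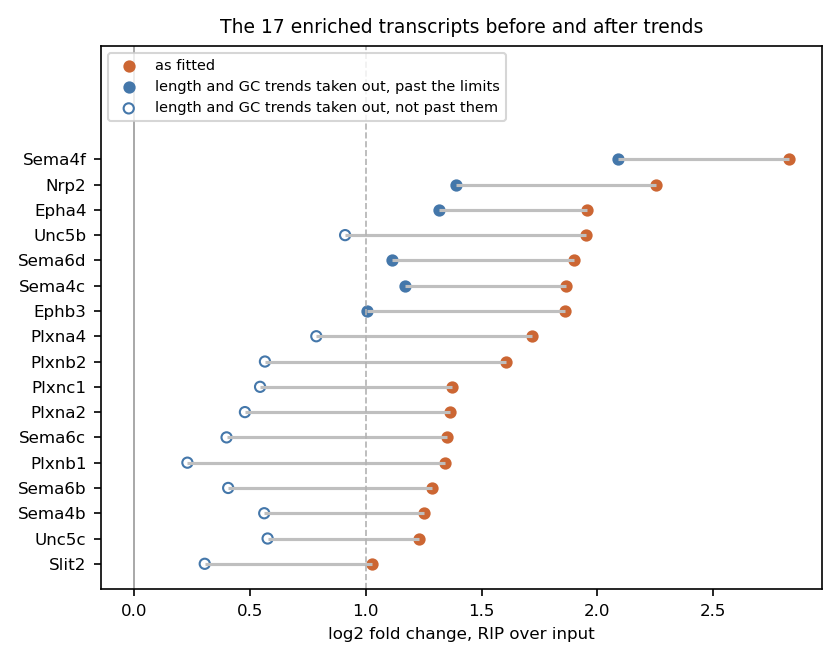
The log2 fold changes of the 17 enriched transcripts as fitted (orange) and after smooth trends on length and GC content were taken out (blue, filled where still at or above the fold limit of 1, open where not), with a dashed line at that limit. Sema4f, Nrp2, Epha4, Sema6d, Sema4c and Ephb3 stay at or right of the line, Ephb3 at 1.01, and the other 11 fall to its left.

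GC content, and length to a smaller extent, separated the inputs from each other. Across the 61 members, the difference of input replicate 2 minus input replicate 1 had a Spearman correlation with GC content of -0.636 (-0.601 over 11953 protein-coding transcripts), while that of the RIP libraries had one of 0.0556 (0.0122). With length, the difference of the inputs had a correlation of 0.389 over the members (0.352 over the protein-coding transcripts). That of the RIP libraries had one of 0.0155 (-0.0895). The part of GC content and length in single calls was not tested beyond the trends given above.

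Downstream of the receptors, a list of 70 adaptors, kinases, GTPase regulators and co-factors of guidance signalling, of which 69 were in the table, was read from the same fit. Of the 67 tested, 10 were enriched (14.9%, against 9.43% of all transcripts) and 4 depleted (5.97%, against 17.2%), with a median log2 fold change of 0.47. Pak4, a kinase that acts on actin through LIM kinases, had the highest value, from 306 and 148 counts in the inputs to 791 and 654 counts in the RIP libraries (2.12 ± 0.432, edgeR adjusted p = 0.0163). Rgmb, a ligand of Neo1 (1.74 ± 0.396, edgeR adjusted p = 0.0242), and Srgap3, a GTPase-activating protein that binds Robos (1.55 ± 0.339, edgeR adjusted p = 0.0213), also passed the adjusted limit. Abl2 (1.41), Ptk2 (1.33), Src (1.18), Arhgef12 (1.12), Trio (1.08), Pak2 (1.05) and Enah (1.01), which link receptors to kinases, small GTPases and actin, were called by the unadjusted limit alone. Kalrn, a guanine nucleotide exchange factor, missed the fold limit at 0.93 ± 0.346 (edgeR adjusted p = 0.1143). Cfl1, the actin-severing cofilin, fell from 8754 and 6213 counts to 1796 and 1268 counts (-1.84 ± 0.381, edgeR adjusted p = 0.0171). The actin regulator Evl (-1.45) and Rgma (-1.18), another ligand of Neo1, were called depleted by the unadjusted limit, as was Mical2, with 19 and 17 input counts and 1 and 0 RIP counts. With the trends on length and GC content taken out, 2 of the list were enriched in place of 10. Rgma was at -0.34 without input replicate 1, and the calls of Abl2, Arhgef12, Trio, Ptk2, Pak2, Enah, Src, Evl and Mical2 also depended on single libraries.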

How the data were processed

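P0 wild-type mouse retina gave 2 input and 2 anti-YTHDF2 RIP libraries, prepared with a stranded kit. The authors deposited raw read counts per gene, not normalized and not pooled, and, for the same genes, FPKM, for which the authors divided by gene length and library size. The submitters' processing notes name STAR 2.5, HTSeq and GRCm38, and the settings, annotation and strand option are not given in the sources used here. Total counts of 19530226 to 39499994 per library limit the precision together with the spread between 2 replicates.

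Samples were grouped by their labels. The members were found by symbol, and all 72 matched GENCODE M21, as did 52403 of the 52550 identifiers. The members, the lists of effectors and markers, the limits and the tests were chosen with earlier results of these data known. In edgeR 4.0.16 (R 4.3.3), filterByExpr (minimum count 10, minimum total 15) kept 13632 genes, TMM set the scale, and glmQLFit with glmQLFTest gave p-values, which were Benjamini-Hochberg adjusted over these genes. Standard errors are the log2 fold change divided by the root of its F statistic. Enriched or depleted means a log2 fold change of at least 1 or at most -1 and an unadjusted p below 0.05, the limits that the study's own list of targets shows. The longest coding transcript of a gene gave its length, GC content and motifs.

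The series' design text places an input and a pulldown in each replicate; libraries of 1 number thus belong together. Replicate 2 minus replicate 1 of the inputs and of the RIP libraries correlated across 13632 genes with a Spearman coefficient of -0.0322 and Pearson's r of -0.0282 (-0.0645 and -0.0522 over the 6858 genes that reached 50 counts in each library). The replicate number was left out of the model and used as a block in an alternative.

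The named genes are every called member, the member with the highest mean input FPKM in each family, members known from retinal ganglion cell axons, the called effectors, Srgap3 and Kalrn. Members outside this rule that are given with values (Sema3a, Sema3g, Sema4a, Sema4g, Epha2, Epha3, Epha10, Ephb4, Ephb6, Efna1, Efna3, Efnb3, Robo3, Unc5d and the untested members) were added after their values were seen. The alternatives were scaling by library size, TMM without small noncoding, ribosomal and mitochondrially encoded RNA, DESeq2 1.42.0, no filter, at least 10 counts in every library, limma 3.58.1 on log2(FPKM + 0.1) where the mean reached 0.1 FPKM, the replicate block, each library left out in turn, no minimum fold change, and trends on length and GC content taken out (mgcv 1.9.3, basis size 8) with and without the block. The fits were tested on simulated data.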

Additional observations from a re-analysis of the deposited data

How the results depend on the processing

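The 17 enriched members became 29 when libraries were scaled by size alone, which moved the median of all transcripts from -0.05 to 0.27, and 6 with the trends on length and GC content taken out (7 with the replicate block as well). Their number lay between 14 and 24 under the other fits of the 4 libraries and between 12 (without RIP replicate 2) and 23 (without input replicate 1) with a library left out. No member was depleted except Efna2 with at least 10 counts in every library (1 member) and 0 to 2 with a library left out. The 11 enriched members with an adjusted p below 0.05 became 6 without a filter, 6 with the trends taken out of the fold change, with or without the block (the adjusted p being that of the uncorrected fit), and 0 without either RIP library, 19 without input replicate 2 and 23 without input replicate 1. Depleted ones were 0 to 1 there. A fit with a single RIP or input library takes its spread from the other group. Calls over the whole table moved with the setting too. The enriched share of all tested transcripts, 9.43%, was 17.3% with library size alone and 10.9% with the replicate block. It was 4.03% with the trends taken out, and it also changed with each library left out.

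The median log2 fold change of the members, 0.82, was 1.15 with library size, 0.85 with TMM without small RNA, 0.85 with DESeq2, 0.91 without a filter, 0.71 with at least 10 counts in every library, 0.95 on FPKM, -0.037 with the trends taken out and 0.068 with trends and block, and ran from 0.73 to 0.98 with a library left out. With the trends taken out, 18 of 46 named members changed sign, none of them called in either fit. Enriched effectors, 10, were 17 with library size, 16 on FPKM, 2 with the trends taken out, 3 with trends and block, and from 4 (without RIP replicate 1) to 19 (without input replicate 2) with a library left out. Depleted effectors, 4, were 2 on FPKM and 2 to 5 with a library left out. Pairing by the replicate block raised the enriched members to 23, left the median at 0.84, and ended no member's call.

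With 2 replicates and no control pulldown analysed here, recovery that does not depend on YTHDF2 cannot be told apart. The cause of the changes with length and GC content was not tested.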
